A study of Gallus gallus with 3 samples.

Results

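Superoxide dismutases, catalase and glutathione peroxidases are the first enzymes that remove reactive oxygen species from a cell. The genes described here were SOD1, SOD2, SOD3, CAT, GPX1, GPX2, GPX3, GPX4 and GPX7, taken by symbol from the 15675 genes with a value. All 9 were found, and all 9 had a mean of at least 1 FPKM (fragments scaled to transcript length and library size), a unit that allows levels of different genes to be set side by side. The samples came from the jejunal mucosa of hens aged 28 weeks, Leuang Hang Kao breeders kept at 23 °C. The study also exposed hens to 36 °C for 6 h, with 25 hens in each arm, of which 12 per arm were sequenced. The heated arm was not analysed here. The 3 thermoneutral libraries, called control pools 1, 2 and 3, each held RNA of 4 hens, so the spread between them is a spread between pools and not between single hens. All 3 belong to 1 group, so the values below are levels with their spread and no condition was compared with another.

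Superoxide, a by-product of respiration and of NADPH oxidases, is turned into hydrogen peroxide by superoxide dismutases. Catalase breaks hydrogen peroxide down to water and oxygen, mainly in peroxisomes, and glutathione peroxidases reduce hydrogen peroxide or lipid hydroperoxides at the expense of glutathione. In mammals SOD1 works in the cytosol, SOD2 in the mitochondrial matrix and SOD3 outside the cell, and most glutathione peroxidases carry selenocysteine at the active site. The small intestine meets oxidants from food, microbes and its own fat oxidation, and these enzymes are often measured in heat-stressed poultry.

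The mRNAs of 7 of the 9 enzymes were abundant in the control mucosa, and SOD3 and GPX7 were the exceptions. The median member had a mean of 201.8 FPKM, against 12.7 FPKM over the 11570 genes that averaged 1 FPKM or more, called expressed genes below. The members together held 0.234%, 0.270% and 0.271% of the summed FPKM in pools 1, 2 and 3. By mean over the pools the order was GPX3, SOD1, GPX4, GPX1, SOD2, GPX2, CAT, SOD3 and GPX7. The first of these ranked 194th among all 15675 genes, CAT ranked 889th, SOD3 5434th and GPX7 9525th.

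**Figure D1:**
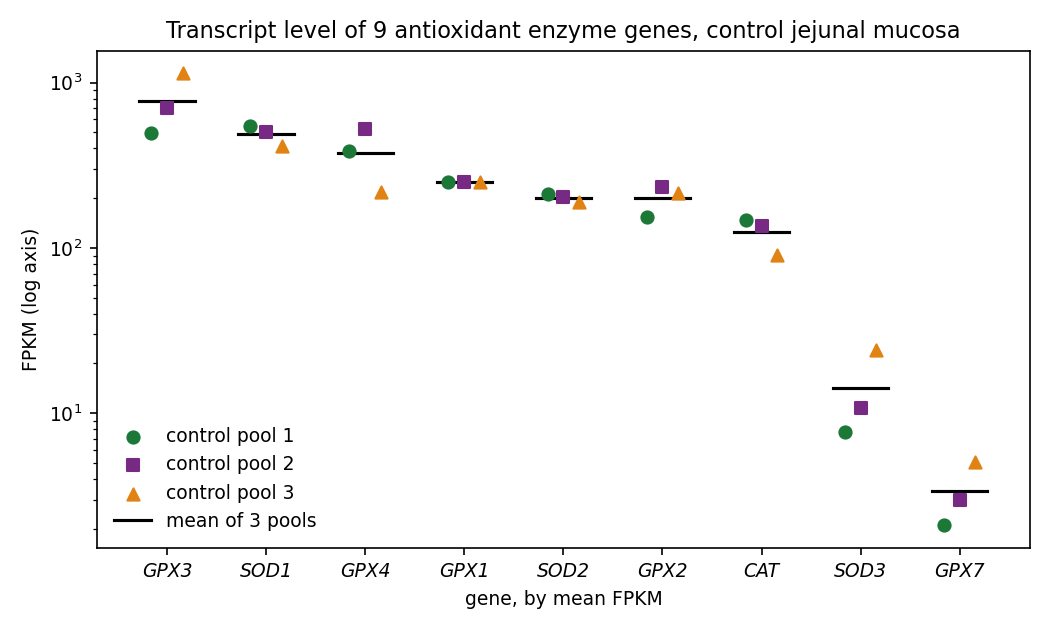
FPKM (log axis) of each antioxidant enzyme gene in control pools 1 (circles), 2 (squares) and 3 (triangles), with a line at the mean of the 3 pools. The first 7 genes lie between 90.43 and 1138.81 FPKM, while SOD3 and GPX7 lie between 2.10 and 24.13 FPKM.

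Among the superoxide dismutases the cytosolic enzyme led in every pool. SOD1, the copper and zinc enzyme, was at 545.72, 502.54 and 412.17 FPKM in pools 1, 2 and 3 (487 ± 68.2, SD, n = 3). SOD2, the manganese enzyme of mitochondria, was at 211.14, 204.51 and 189.66 FPKM (202 ± 11.0, SD, n = 3). Both had their highest value in pool 1 and their lowest in pool 3, and their values did not overlap. SOD3, the secreted enzyme that binds extracellular matrix, was at 7.66, 10.81 and 24.13 FPKM (14.2 ± 8.74, SD, n = 3), the reverse order. The level of SOD1 was 71.2, 46.5 and 17.1 times that of SOD3 in pools 1, 2 and 3. SOD3 thus made up 1.002%, 1.51% and 3.85% of the summed superoxide dismutase FPKM, and SOD1 71.4%, 70.0% and 65.8%.

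CAT, the peroxisomal catalase, was at 148.30, 136.63 and 90.43 FPKM in pools 1, 2 and 3 (125 ± 30.6, SD, n = 3). Pool 3 was the low one. The ratio of SOD1 to CAT within a pool was 3.68, 3.68 and 4.56, so the ratio was alike in pools 1 and 2 and higher in pool 3. Ratios within a pool do not depend on how the pools are scaled.

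Of the glutathione peroxidases, the secreted enzyme GPX3 and the lipid hydroperoxide enzyme GPX4 were the most abundant on average, and both differed by more than 1 between pools on the log2(FPKM + 1) scale. GPX3, found in plasma and extracellular fluid in mammals, was at 495.34, 698.14 and 1138.81 FPKM in pools 1, 2 and 3 (777 ± 329, SD, n = 3). Pool 3 was the high one, at 2.30 times pool 1. GPX4, which protects membrane lipids, was at 386.42, 527.27 and 217.13 FPKM (377 ± 155, SD, n = 3). Its highest value, in pool 2, was 2.43 times its lowest, in pool 3.

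GPX1, the general cytosolic and mitochondrial glutathione peroxidase, differed least between pools. Its values were 250.98, 250.05 and 249.41 FPKM (250.1 ± 0.789, SD, n = 3), a difference of 0.0090 between the highest and lowest pool on the log2(FPKM + 1) scale. Of the expressed genes, 0.0951% had a difference this small, GPX1 included. The small figure holds for FPKM as deposited. The median ratio of genes at 1 FPKM or more in every pool was 0.13 higher in pool 3 than in pool 1 on the log2 scale, and relative to that shift GPX1 was highest in pool 1, with a difference of 0.14.

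GPX2, the glutathione peroxidase of gastrointestinal epithelium in mammals, was at 153.42, 233.26 and 214.20 FPKM in pools 1, 2 and 3 (200.3 ± 41.7, SD, n = 3). Pool 1 was the low one. GPX7, a peroxidase of the endoplasmic reticulum whose mammalian form has cysteine in place of selenocysteine, was at 2.10, 2.97 and 5.07 FPKM (3.38 ± 1.53, SD, n = 3). It was lowest in pool 1 and highest in pool 3, like SOD3 and GPX3. Its counting error is not known.

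The makeup of the glutathione peroxidase mRNA therefore differed between pools. Summed over the 5 genes it was 1288, 1712 and 1825 FPKM in pools 1, 2 and 3. GPX3 held 38.5%, 40.8% and 62.4% of it, and GPX4 30.0%, 30.8% and 11.9%. GPX1 held 19.5%, 14.6% and 13.7%, and GPX2 11.9%, 13.6% and 11.7%. Pools 1 and 2 had similar shares of GPX3 and GPX4, and pool 3 stood apart. Without GPX3 the sum was 793, 1014 and 686 FPKM, so the pool with the highest sum became the lowest when GPX3 was left out. The extracellular enzymes SOD3 and GPX3 together made up 22.9%, 27.6% and 45.8% of the summed FPKM of all members. Nearly all of this share was GPX3, since SOD3 was at 24.13 FPKM at most.

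**Figure D2:**
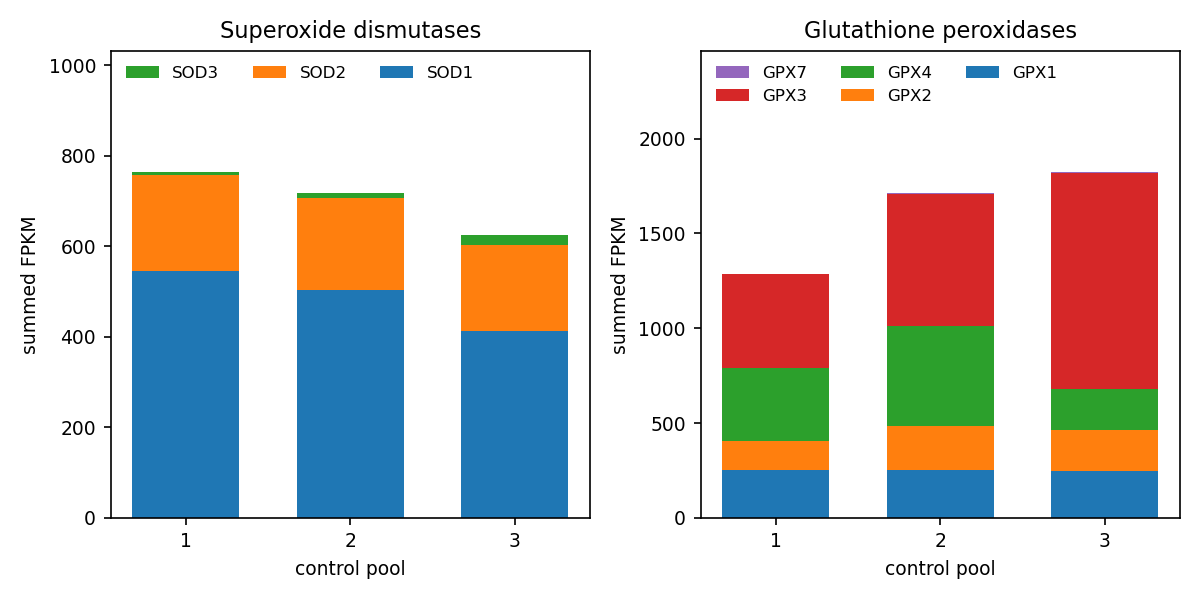
Summed FPKM of the superoxide dismutases (left) and glutathione peroxidases (right) in each control pool, stacked by gene and starting at 0. SOD1 is the main superoxide dismutase in each pool, and GPX3 makes up 62.4% of the glutathione peroxidase sum in pool 3, while GPX7, at most 5.07 FPKM, is too low to be seen.

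Within pools, most pairs of these genes kept one order. Of the 36 pairs, 32 did so in all 3 pools, and in 25 the mean difference exceeded 1 on the log2(FPKM + 1) scale. The share over pairs of other expressed genes was not computed, so the count does not set these genes apart. Genes far apart in level keep their order readily. Some kept orders were near ties: GPX2 was 1.03 times CAT in pool 1, and GPX4 was 1.01 times GPX2 in pool 3. Among the 8 neighbours in the order of mean FPKM, 4 kept their order. GPX1 exceeded SOD2 by 0.31 ± 0.07, GPX2 exceeded CAT by 0.68 ± 0.60, CAT exceeded SOD3 by 3.17 ± 1.17, and SOD3 exceeded GPX7 by 1.70 ± 0.30 (mean ± SD, n = 3).

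The other 4 neighbours changed places between pools, so their order by mean is not settled. GPX3 minus SOD1 was -0.14, 0.47 and 1.46 in pools 1, 2 and 3. SOD1 minus GPX4 was 0.50, -0.07 and 0.92. GPX4 minus GPX1 was 0.62, 1.07 and -0.20, and SOD2 minus GPX2 was 0.46, -0.19 and -0.17. The most abundant of the 9 mRNAs was SOD1 in pool 1 and GPX3 in pools 2 and 3. With 3 pools, exact permutation of signs cannot give a two-sided p below 0.25, so no p is given for any pair.

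Differences between pools were wider for the median member than for the median gene. The highest and lowest pool differed by a median of 0.71 over the 9 members, against 0.33 over all expressed genes. These sets were not matched for level, at medians of 201.8 and 12.7 FPKM, and the log2(FPKM + 1) scale understates differences of low genes. A difference of more than 1 on the log2(FPKM + 1) scale was found for 3 members, SOD3 at 1.54, GPX4 at 1.28 and GPX3 at 1.20, against a background of 7.06% of expressed genes. GPX7, at 0.97, lay just under the threshold, followed by CAT at 0.71, GPX2 at 0.60, SOD1 at 0.40 and SOD2 at 0.15. Leaving out a pool cannot widen a difference, and it narrows one whose highest or lowest value lay in that pool. SOD3 and GPX3 were highest in pool 3 and GPX4 was lowest there, so their differences had to narrow without it. With a pool left out, expressed genes were those averaging 1 FPKM or more over the pools kept. The wide differences rest on pool 3: without it none of the 9 differed by more than 1, where 1.62% of expressed genes did. SOD3, GPX3 and GPX4 then differed by 0.45, 0.49 and 0.45. GPX7, CAT, SOD1 and SOD2 then differed by 0.36, 0.12, 0.12 and 0.046, while GPX2 still differed by 0.60. The difference of GPX2 rests on pool 1, without which it was 0.12. The wide differences of GPX3 and GPX4 rest on another pool too. GPX3 differed by 0.71 without pool 1, where 1.76% of expressed genes differed by more than 1. GPX4 differed by 0.83 without pool 2, where 5.91% did. SOD3 stayed above 1 without pool 1 and without pool 2, at 1.09 and 1.54.

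**Figure D3:**
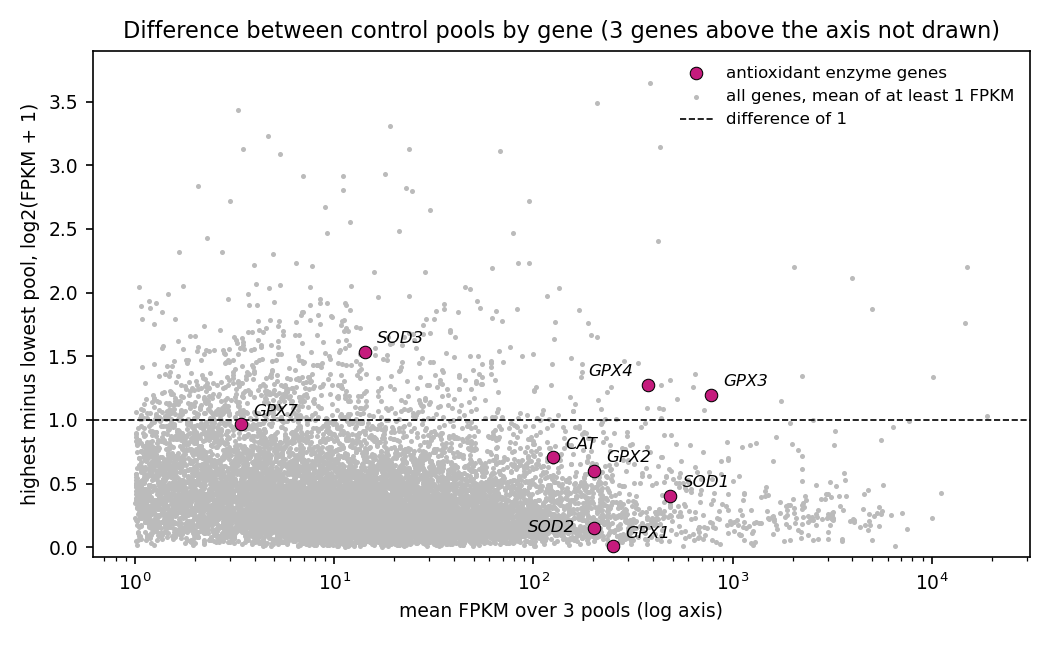
Difference between the highest and lowest control pool on the log2(FPKM + 1) scale against mean FPKM (log axis), for the antioxidant enzyme genes (large points) and all expressed genes (small points). SOD3, GPX4 and GPX3 lie above the dashed line at 1, and GPX1 lies at 0.0090.

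The members fell into opposite orders across the pools. SOD1, SOD2, CAT and GPX1 had their highest value in pool 1 and their lowest in pool 3, an order that 16.9% of expressed genes had. SOD3, GPX3 and GPX7 had their highest value in pool 3 and their lowest in pool 1, as did 39.2% of them. GPX2 and GPX4 were highest in pool 2, where 23.1% of them were highest. The median ratio of the 11014 genes at 1 FPKM or more in every pool was itself 0.13 higher in pool 3 than in pool 1. After scaling to that ratio each member kept its highest and its lowest pool. The differences between pools 3 and 1 were then -0.54 for SOD1, -0.29 for SOD2, -0.84 for CAT and -0.96 for GPX4, against 1.41 for SOD3, 1.07 for GPX3 and 0.87 for GPX7. With an equal sum of FPKM in each pool, the lowest pool of GPX1 was pool 2.

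Within-pool ratios show how far members moved together. The level of GPX3 was 236, 235 and 225 times that of GPX7 in pools 1, 2 and 3, and 64.7, 64.6 and 47.2 times that of SOD3. The ratio of SOD1 to SOD2 was 2.58, 2.46 and 2.17. The ratio of GPX3 to CAT was 3.34, 5.11 and 12.6, and that of GPX4 to SOD3 was 50.4, 48.8 and 8.998.

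Markers of several cell types moved between the pools as well. In bulk samples, fewer cells of a type and less RNA per cell cannot be told apart. All 12 enterocyte markers were lowest in pool 3, beside 27.6% of expressed genes, and 9 were highest in pool 1. Their summed level was 65250, 57359 and 22476 FPKM in pools 1, 2 and 3. That is the order of SOD1, SOD2 and CAT, and of GPX1, whose difference was only 0.0090. GPX4 was also lowest in pool 3 but highest in pool 2. The enterocyte markers FABP2, ANPEP and MTTP, 3 of the 12, had that order. Abundant markers such as FABP1 and APOA1 weigh most in the sum. FABP1 was at 20545.5 FPKM in pool 1 and 4468.83 FPKM in pool 3, against 687.05 and 507.56 FPKM for VIL1. All 12 fibroblast and stroma markers peaked in pool 3 and had their minimum in pool 1, beside 39.2% of expressed genes. So did 11 of 12 smooth muscle markers and 7 of the 8 expressed endothelial markers. Their summed levels were 256, 481 and 786 FPKM for fibroblast and stroma, 863, 1186 and 1772 FPKM for smooth muscle, and 100.4, 143 and 239 FPKM for endothelium. That is the order of SOD3, GPX3 and GPX7.

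The remaining marker lists included cells of the crypt, the mucous layer and the blood. Crypt and proliferating markers summed to 257, 394 and 461 FPKM in pools 1, 2 and 3, and all 8 expressed ones were lowest in pool 1, as was GPX2, beside 51.6% of all expressed genes. Goblet markers summed to 1758, 2023 and 1995 FPKM, macrophage and dendritic markers to 411, 425 and 431 FPKM, T and NK lymphocyte markers to 779, 838 and 964 FPKM, and B and plasma cell markers to 14858, 18411 and 30871 FPKM. IGLL1 made up most of the B and plasma cell sum, at 13360.1, 16361 and 27244.1 FPKM, and PAX5 in that list was highest in pool 1. Of 7 erythrocyte markers 3 were matched, with a sum of 52.5, 140.3 and 149.5 FPKM, and the band 3 anion exchanger SLC4A1 was listed at 0 in pool 1. No matched marker was at 0 in all 3 pools. The order of SOD3, GPX3 and GPX7 was thus not confined to stroma, muscle and endothelium. In 8 of the 10 marker lists the median gene was highest in pool 3 and lowest in pool 1, as were 39.2% of expressed genes. The lists were not rescaled for the 0.13 shift of the median ratio. This order was held by 5 of 8 expressed macrophage and dendritic, 4 of 9 T and NK, and 5 of 8 B and plasma cell markers. The erythrocyte list rests on 2 expressed genes. In the other 2 lists, enterocyte and goblet, the median gene was highest in pool 1 and lowest in pool 3. In none of the 10 was the median gene highest in pool 2, where GPX2 and GPX4 were highest. The goblet sum was highest in pool 2, however. Of the 7 expressed goblet markers only 1, CLCA1, was highest there, at 72.07, 147.75 and 30.67 FPKM, and 5 were highest in pool 1. Also highest in pool 2 were 2 of the 8 expressed crypt and proliferating markers, OLFM4 and LGR5. So were 3 of the 12 enterocyte markers, beside 23.1% of expressed genes, while 9 enterocyte markers were highest in pool 1. The part of these cell types in the differences among members was not tested.

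**Figure D4:**
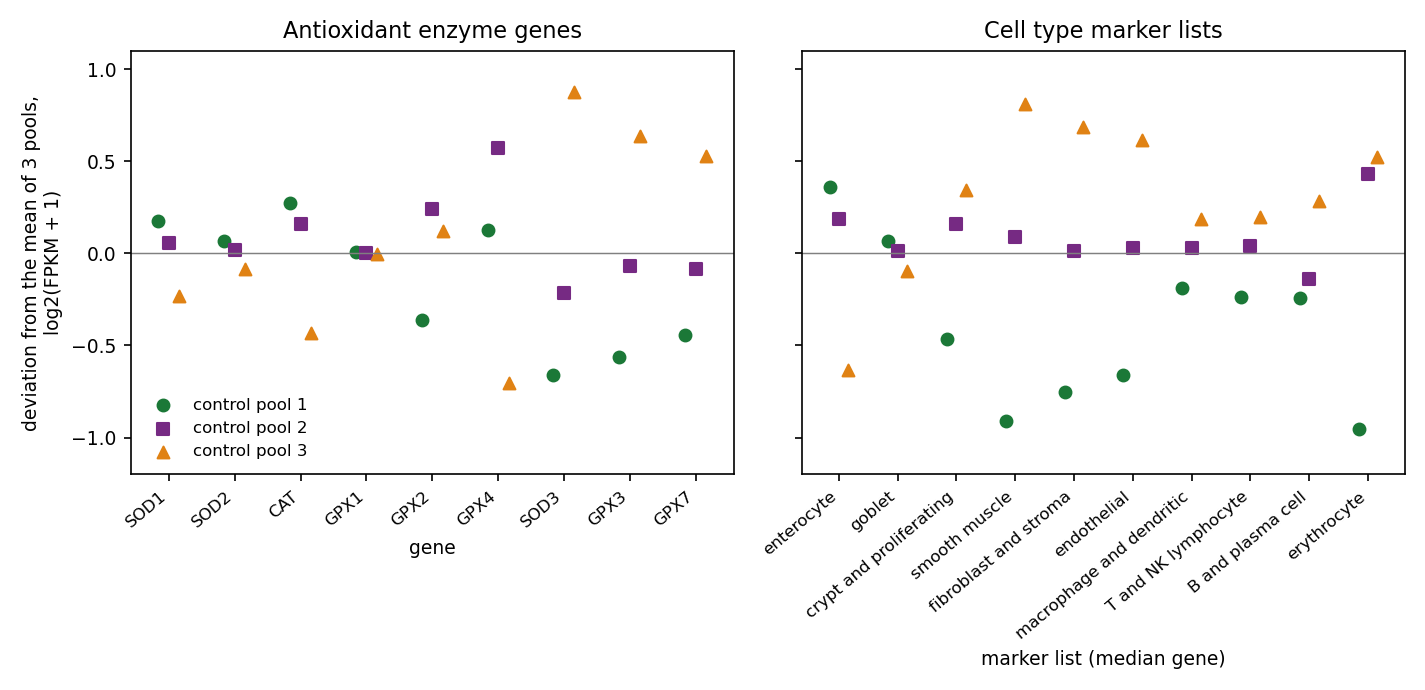
Deviation from the mean of the 3 control pools on the log2(FPKM + 1) scale, for each antioxidant enzyme gene (left) and for the median gene of each marker list (right); circles, squares and triangles are pools 1, 2 and 3. SOD3, GPX3 and GPX7 are high in pool 3, as are smooth muscle, fibroblast and endothelial markers. In 8 of the 10 lists, those among them, the median gene is highest in pool 3 and lowest in pool 1. CAT and enterocyte markers are low in pool 3, and GPX4 deviates by -0.70 in pool 3 and 0.57 in pool 2.

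The genes whose values moved most like each member were found by the distance between deviations from the gene's own mean over the 3 pools, among 8598 genes averaging 5 FPKM or more (8599 for GPX7). With 3 pools many genes share any mild profile, so closeness describes these libraries only. GPX1 had 1393 genes within a distance of 0.1, SOD2 1052 and SOD1 389. The closest to SOD1 were CDX2, at 94.51, 86.95 and 71.45 FPKM in pools 1, 2 and 3, then SLC37A3 and LOC421419. CAT had 75 genes within this distance, led by ABHD6, at 138.10, 126.76 and 84.64 FPKM, SLC47A1 and HMGCS1. For GPX2 there were 46, with GSTA4L and RMI2 among the closest.

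Few genes lay within a distance of 0.1 of SOD3 and GPX4, the members with the widest differences between pools. A fixed distance holds fewer genes the wider the profile, so these counts depend on the size of a difference as well as its order. The order of SOD3, highest in pool 3 and lowest in pool 1, was shared by 39.2% of expressed genes. SOD3 had 4 genes within a distance of 0.1, with ELOVL5, LGALS1 and EGR1 the closest. LGALS1 was at 41.80, 60.19 and 126.48 FPKM and EGR1 at 12.58, 16.86 and 36.17 FPKM. GPX4 had 5, with LOC417056, FETUB and CL2 the closest, and CL2 was at 182.11, 247.54 and 94.66 FPKM. GPX3 had 26, led by MAPK11, SLC2A1 and PODN, and GPX7 had 54, led by RHOB, PTPRS and CALCB. For GPX1 the closest were RAB21, PPM1B and TUBGCP2, and for SOD2 C14H16orf91, RBBP7 and RIPK3.

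Genes that supply, feed or accompany these enzymes were followed in 6 lists. Over these, 73 of 79 listed genes were matched and 67 were expressed. Of these, 3 differed by more than 1 between pools, beside a background of 7.06%: the glutathione peroxidase relative GPX8, the NADPH oxidase NOX4 and the D-amino acid oxidase DAO. GPX8 was at 1.24, 3.99 and 3.82 FPKM in pools 1, 2 and 3. For genes as low as GPX8 and NOX4 the log2(FPKM + 1) scale understates the difference.

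None of the 7 matched genes of selenoprotein synthesis differed by more than 1, which with so few genes is near the background of 7.06%. The selenophosphate synthetase relative SEPHS1 was at 30.6 ± 2.06 FPKM, the selenocysteine insertion factor SECISBP2 at 13.9 ± 1.56 and the kinase PSTK, which acts on the selenocysteine tRNA, at 13.5 ± 1.82 (SD, n = 3). Of the 7 genes, 6 were lowest in pool 1, beside 51.6% of expressed genes, and none was highest there. SELENOP1, a selenoprotein P gene named after its values were seen, was at 1114.46, 819.49 and 696.67 FPKM in pools 1, 2 and 3. Unlike them it was highest in pool 1 and lowest in pool 3, as were SOD1, CAT and 16.9% of expressed genes.

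Glutathione and NADPH supply was measured by 12 genes, and none differed by more than 1, again near the background of 7.06%. The pentose phosphate enzymes TALDO1 and TKT were at 248 ± 30.6 and 183 ± 30.0 FPKM and the NADPH-forming IDH1 at 183 ± 36.2 (SD, n = 3). ME1, the cytosolic malic enzyme, was at 24.26, 20.27 and 14.50 FPKM in pools 1, 2 and 3. Of these genes 8 of 12 were lowest in pool 3, where 27.6% of expressed genes were lowest. The opposite order, highest in pool 3 and lowest in pool 1, was held by 3 of 12, beside 39.2% of expressed genes. TALDO1, at 215.59, 251.69 and 276.53 FPKM, and TKT, at 151.40, 187.54 and 210.89 FPKM, were among them. The sum of the list was 1104, 1154 and 1116 FPKM in pools 1, 2 and 3, so it was not lowest in pool 3.

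Among sources of superoxide and hydrogen peroxide, 18 of the 23 matched genes were expressed. The monoamine oxidase MAOA was at 162 ± 3.28 FPKM and the epithelial NADPH oxidase NOX1 at 87.8 ± 4.02 (SD, n = 3). NOX4 was at 1.18, 2.23 and 3.70 FPKM, the order of SOD3. DAO was at 24.87, 32.29 and 14.68 FPKM, the order of GPX4.

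All 8 expressed metal and peroxisome partner genes were lowest in pool 3, as SOD1 and CAT were, beside 27.6% of expressed genes. The copper chaperone ATOX1 was at 516.20, 521.00 and 414.87 FPKM across pools 1, 2 and 3. The copper importer SLC31A1 was at 74.93, 73.66 and 52.18 FPKM, and the zinc and manganese importer SLC39A14 at 48.89, 44.51 and 37.28 FPKM. PEX11A, which acts in peroxisome division, was at 3.67, 4.32 and 2.05 FPKM. CCS, the copper chaperone of SOD1, was not matched.

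The thioredoxin system included the most abundant mRNA among these lists. PRDX1, a peroxiredoxin, was at 1865.29, 1765.61 and 1549.69 FPKM in pools 1, 2 and 3, above every member in each pool. TXN, its electron donor, was at 926 ± 112 FPKM and the mitochondrial PRDX3 at 122 ± 8.68 (SD, n = 3). The NRF2 list holds the oxidant-responsive factor, its regulators and partners, and some of its targets. None of the 10 listed genes differed by more than 1 on the log2(FPKM + 1) scale, also near the background of 7.06%. HMOX1, at 0.99, lay just under 1. NQO1 was at 211.15, 252.58 and 167.86 FPKM, the autophagy receptor SQSTM1 at 101.3 ± 13.7 and the sulfiredoxin SRXN1 at 80.5 ± 10.3. The haem oxygenase HMOX1 was at 57.09, 53.89 and 28.18 FPKM, with pool 3 the low one.

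Gene position may bear on the values of GPX7 and GPX1. In the RefSeq annotation of assembly GRCg7b, GPX1 overlaps LOC101747452 and GPX7 overlaps ZCCHC11. The submitters' notes name build GRCg6a, so it is not known if these genes overlapped in the annotation that was counted. LOC101747452 was at 0.39, 0.43 and 0.65 FPKM in pools 1, 2 and 3, far under GPX1. ZCCHC11 was at 8.67, 8.96 and 9.07 FPKM, above GPX7. Whole gene spans were compared and not exons, and the sources used here do not say if counting used strand. Whether an overlap raised or lowered the value of GPX7 or GPX1 is therefore not known. No other member overlaps an annotated gene, and no member lies next to another.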

How the data were processed

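Libraries of jejunal mucosa RNA, pooled from 4 hens each, were sequenced by the authors. Build GRCg6a, HISAT2 2.0.1, cutadapt 1.9.1, DESeq2 and HTSeq 0.6.1 appear in the submitters' processing notes with no role or order. FPKM, so named per the file headers, were used as the authors deposited them. Their sums were 939772, 948742 and 936084 in pools 1, 2 and 3. The estimated counts the authors deposited bore no relation to FPKM row by row, so they gave no value and the depth is unknown. Pearson's r between log2(count + 1) and log2(FPKM + 1) ran from 0.0046 to 0.0090 across genes, which are not independent. FPKM were taken to belong to the gene symbol of their row. A further 6 columns match no sample of the labels and were not used.

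Values were transformed as log2(FPKM + 1), and genes averaging 1 FPKM or more formed the background. Members and lists were chosen with earlier results of these data known. Named genes were all members, the 3 most abundant genes and the 1 with the widest difference of each pathway list, and the 3 genes closest to each member. Some genes that this rule selects are not reported here. DAO and SELENOP1 were named after their values were seen. The rule does not cover the marker genes named in the text, VIL1 and SLC4A1 among them. Listed symbols were matched exactly, 91 of 97 for markers. All 9 member symbols were found in RefSeq GRCg7b, used for names and neighbours only. With 1 group no test was run. The labels do not say whether pools came from separate flocks. Only the call of a difference over 1 and of the highest pool was tested on simulated data. The spread between the simulated pools was set and not taken from these pools. Alternatives were a pseudocount of 0.1, equal sums, median ratio scaling, other minimum values and each pool left out. Python 3.11.15, numpy 2.4.6, pandas 2.3.3 and matplotlib 3.10.9 were used.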

Additional observations from a re-analysis of the deposited data

How the results depend on the processing

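The number of members that differed by more than 1 between pools was 3, beside 7.06% of expressed genes. With each pool left out in turn it ranged from 0, without pool 3, to 2. The share of expressed genes was then 1.76%, 5.91% and 1.62% without pools 1, 2 and 3. These shares are over the genes averaging 1 FPKM or more in the pools kept, 11687, 11564 and 11401 genes. With a pseudocount of 0.1 the number of members was 4, where GPX7 passed, and the share rose to 11.9%. The order of pairs within a pool cannot change with the scaling or the pseudocount. GPX1 moved most in proportion, with a difference of 0.0090 as deposited, 0.019 with equal sums and 0.14 with median ratio scaling. SOD2 had 0.15 as deposited and 0.29 with median ratio scaling. With a minimum mean of 5 FPKM, GPX7 was not among the genes kept. No paired analysis was possible because there is only 1 group. Without known depth, counting error could not be given, including that of the low genes GPX7 and SOD3.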
